A study of Spodoptera frugiperda with 3 samples.

Results

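Silk and spinning gland proteins of the fall armyworm *Spodoptera frugiperda* were followed through 5 unigenes, out of 30327 unigenes in the 3 deposited comparison tables. A unigene is an assembled transcript that stands for a gene or a fragment of a gene. The 5 unigenes were those whose best protein match in the NR database carries fibroin, fibrohexamerin, seroin, sericin or silk in its name. The rule took 2 fibrohexamerin-like unigenes, 1 fibroin heavy chain-like unigene and 2 unigenes whose match holds the letters silk, which are the transcription factors silk gland factor 1 and BmGATA beta. It took 0 unigenes by the words seroin and sericin.

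RNA came from whole bodies of wild type larvae held for 16 h at 4 °C (T4) or at 40 °C (T40), and of larvae held at 25 °C as the control (T25), for which the time is not stated. Each temperature had 1 library from 5 pooled larvae, the fourth instar at treatment in the labels and the fifth at extraction in the methods of the study, so no difference could be compared with the spread between replicates and no test was possible. The study's statistics section speaks of replicates, but the labels give a single library for each temperature. Summed over the tables, the read counts were 24403584 for T4, 16678975 for T25 and 21560373 for T40. For each comparison the authors deposited a list of unigenes, which leaves out unigenes with similar levels. Listed were 12173 unigenes for T4 against T25 and 20077 for T40 against T25. These are many more than the differentially expressed genes that the study reports, which had to pass cutoffs of log2 fold and p-value. Some of the 5 unigenes were listed with a log2 ratio below that cutoff, so listed does not mean differentially expressed in the study.

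Caterpillars make silk in a pair of modified labial glands. In the silkworm *Bombyx mori* the posterior part of the gland secretes fibroin, in which a heavy and a light chain are joined with the glycoprotein fibrohexamerin, also called P25. The middle part adds sericins, the glue around the fibre. Silk gene transcription in *Bombyx* is high while the larva feeds and low during a moult, and it depends on factors of the forkhead, POU and homeotic families. Larvae of *S. frugiperda* spin no cocoon of the silkworm kind, pupate in the soil and as young larvae drop on threads.

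The 2 fibrohexamerin-like unigenes had most reads at 4 °C and fewest at 40 °C. The unigene c167706_g1_i1 had 8403 reads in T4, 2617 in T25 and 12 in T40. Divided by the effective library sizes of the authors' normalization and written as counts per 1000000 reads of that size (CPM), these are 230.3 CPM in T4, 93.4 in T25 and 0.311 in T40. The level was thus 2.47-fold higher in T4 than in T25, with a 95% counting interval of 2.36 to 2.58. It was 301-fold lower in T40 than in T25 (95% counting interval 172 to 583). Every counting interval is an exact Clopper-Pearson interval given the total reads of both libraries, and it covers counting error only, not differences between larvae. Against T4, the T40 level was 742-fold lower (95% counting interval 424 to 1436).

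Among the listed unigenes these folds lie at the far end for 40 °C and near the smallest for 4 °C. Of the 10624 unigenes listed as lower in T40 than in T25, 64 had a larger fold than c167706_g1_i1. Of the 10316 listed as lower in T40 than in T4, 13 had a larger fold. In T4/T25, by contrast, 6645 of the 6704 unigenes listed as higher had a larger fold. Only 40.1% of the 30327 unigenes were listed in T4/T25, and those with similar levels are left out. The T4/T25 rank therefore does not show that the step was small among all unigenes. The smallest count in these tables is 1, so unigenes without reads in T40 could not enter the rankings of fold at 40 °C. By FPKM, which normalizes reads to unigene length and library size, c167706_g1_i1 stood at 234.7 in T4, 101.3 in T25 and 0.37 in T40. Its FPKM ranked 136 of 25639 unigenes with a value in T4, 316 of 25964 in T25 and 20129 of 27856 in T40. In T40 its FPKM was above that of 27.2% of the unigenes, beside 98.8% in T25 and 99.5% in T4.

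**Figure D1:**
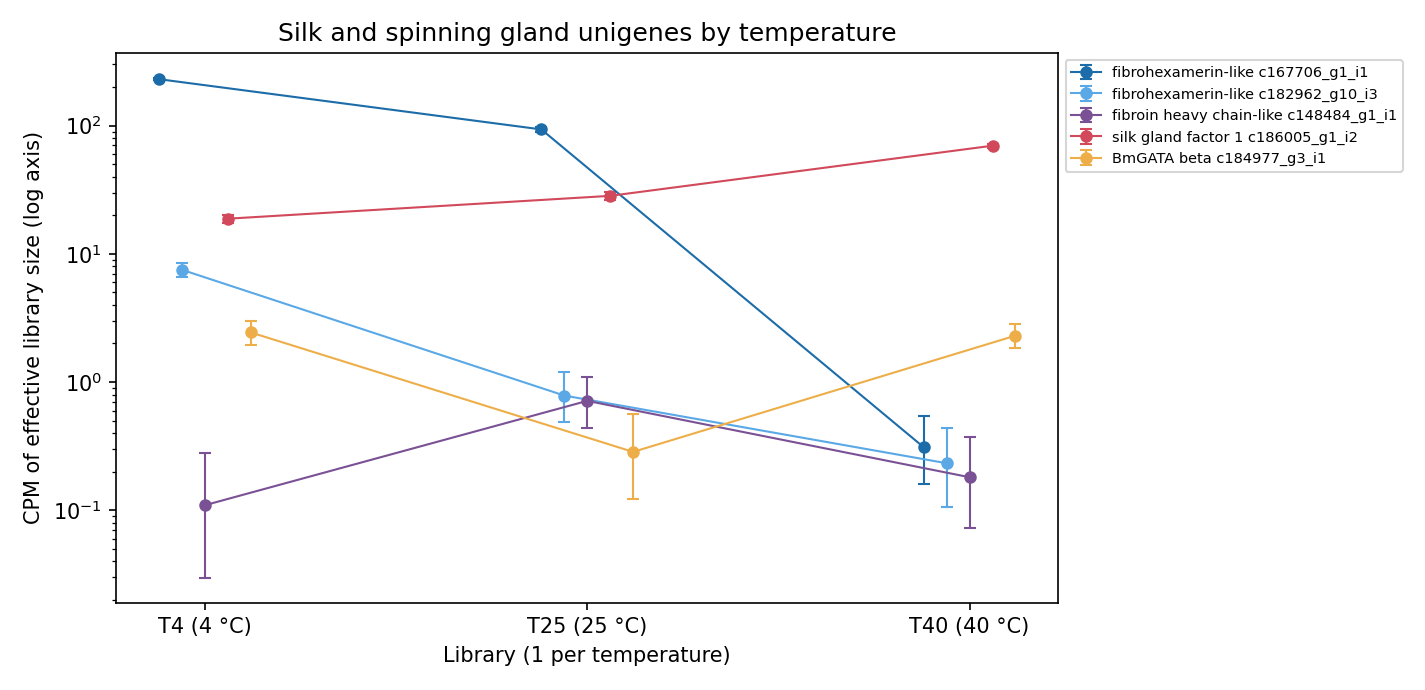
Counts per 1000000 reads of effective library size, CPM (log axis), of the 5 unigenes in the T4, T25 and T40 libraries, 1 library per temperature, with exact Poisson 95% intervals as bars. The fibrohexamerin-like c167706_g1_i1 goes from 230.3 in T4 to 0.311 in T40, while silk gland factor 1 goes from 18.8 to 69.7.

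The second fibrohexamerin-like unigene, c182962_g10_i3, had 274 reads in T4, 22 in T25 and 9 in T40, or 7.51, 0.785 and 0.233 CPM. It kept the order of c167706_g1_i1 at a lower level and with other proportions. It was 9.56-fold higher in T4 than in T25 (95% counting interval 6.19 to 15.5) and 3.37-fold lower in T40 than in T25 (95% counting interval 1.49 to 8.32). The T40 level was 32.2-fold lower than that of T4 (95% counting interval 16.7 to 71.3). On the FPKM scale it stood at 9.22 in T4, 1.03 in T25 and 0.33 in T40.

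Both unigenes have the same best protein match, a fibrohexamerin-like protein of *Spodoptera litura*, so they may be copies or parts of the same gene, and reads shared between them cannot be assigned with certainty. Within a library, c167706_g1_i1 had 30.7 times the reads of c182962_g10_i3 in T4 (95% counting interval 27.2 to 34.7). The same ratio was 119 in T25 (95% counting interval 78.4 to 190.1) and 1.33 in T40 (95% counting interval 0.516 to 3.58). The intervals of the 3 libraries do not overlap, so the ratio of the pair differed between libraries by more than counting error. The 2 unigenes had about the same low level in T40, where 12 and 9 reads were counted.

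The fibroin heavy chain-like unigene c148484_g1_i1, related to the large repetitive chain of the silk fibre, had 4 reads in T4, 20 in T25 and 7 in T40. Its highest level was in the control library, unlike that of the fibrohexamerin-like unigenes. It was 6.51-fold lower in T4 than in T25 (95% counting interval 2.18 to 26.2) and 3.94-fold lower in T40 than in T25 (95% counting interval 1.60 to 11.03). Between the stress temperatures it was 1.65-fold higher in T40, with an interval of 0.420 to 7.70 that includes equal levels, and it was not listed in T40/T4. Its FPKM values were 0.26 in T4, 1.81 in T25 and 0.49 in T40, so that in T25 the FPKM of c167706_g1_i1 was many times that of the heavy chain-like unigene. The relation of reads to FPKM in T25 gives this unigene 0.428 times the length of c167706_g1_i1. This is the length used for FPKM, which need not equal the length of the assembled unigene. The repetitive part of a heavy chain gene is long and assembles poorly from short reads, so these reads may cover an end of the gene only.

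Added together, the 3 unigenes related to silk structure had 8681 reads in T4, 2659 in T25 and 28 in T40. The sum was 2.51-fold higher in T4 than in T25 (95% counting interval 2.40 to 2.62). It was 131-fold lower in T40 than in T25 (95% counting interval 90.4 to 197.5). Nearly all of these reads belong to c167706_g1_i1, so the sums repeat its pattern. Because the libraries are of whole larvae, a smaller gland and less RNA per gland cell cannot be told apart.

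The transcription factors had another pattern. Silk gland factor 1, a forkhead protein that in *Bombyx* binds silk gene promoters and belongs to the same family as *Drosophila* fork head, was represented by c186005_g1_i2. It had 686 reads in T4, 794 in T25 and 2695 in T40, or 18.8, 28.3 and 69.7 CPM. The level in T40 was 2.46-fold higher than in T25 (95% counting interval 2.27 to 2.67) and 3.71-fold higher than in T4 (95% counting interval 3.41 to 4.04). The step between T4 and T25 was 1.51-fold, lower in T4 (95% counting interval 1.36 to 1.67), and was not listed by the authors. Heated larvae thus had the most silk gland factor 1 reads and the fewest fibrohexamerin-like reads. The T40/T25 fold is among the smallest listed, since 9375 of the 9453 unigenes listed as higher had a larger fold. Unigenes with similar levels are not in that list, so the rank holds among listed unigenes only. In T40/T4, 6272 of 8580 had a larger fold. Forkhead proteins of this class are also expressed in the gut of insects, and whole larvae do not show from which tissue these reads came.

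BmGATA beta was represented by c184977_g3_i1, which had 89 reads in T4, 8 in T25 and 89 in T40. It entered by the letters silk in "silkworm", in the name of a match from the winter moth *Operophtera brumata*. In *Bombyx* this zinc finger protein, also called BCFI, is known as a regulator of eggshell genes and not of silk genes. It was 8.54-fold higher in T4 than in T25 (95% counting interval 4.15 to 20.4) and 8.07-fold higher in T40 than in T25 (95% counting interval 3.92 to 19.3). The levels in T40 and T4 differed by 1.06-fold, lower in T40, with an interval of 0.781 to 1.44 that includes equal levels, and this direction turned under other scalings. Both steps rest on the 8 reads of the control library. Its FPKM values were 3.06 in T4, 0.38 in T25 and 3.33 in T40.

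**Figure D2:**
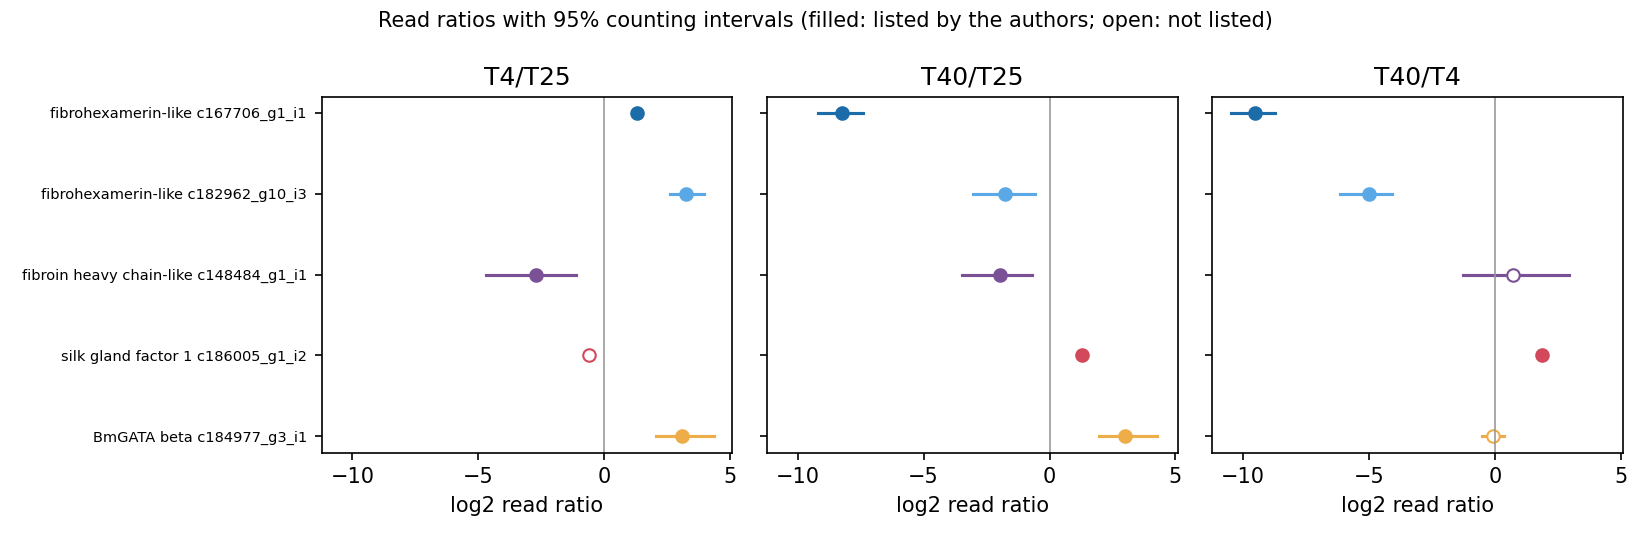
Log2 read ratios of the 5 unigenes in T4/T25, T40/T25 and T40/T4, each after division by effective library size, with 95% counting intervals as bars. Filled points are listed in the deposited table of that comparison and open points are not, and T40/T25 has 3 points below zero and 2 above.

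The composition of the reads of the 5 unigenes differed between the libraries. The fibrohexamerin-like c167706_g1_i1 held 88.9% of the reads of the 5 unigenes in T4, 75.6% in T25 and 0.427% in T40. Silk gland factor 1 held 7.25%, 22.9% and 95.8% of them in the same order. In shares of reads a longer unigene weighs more. By the relation of reads to FPKM in T4, silk gland factor 1 had 4.05 times the length of c167706_g1_i1. The sum over all 5 unigenes was 2.10-fold higher in T4 than in T25 (95% counting interval 2.02 to 2.18), 1.70-fold lower in T40 than in T25 (95% counting interval 1.61 to 1.78) and 3.56-fold lower in T40 than in T4 (95% counting interval 3.41 to 3.72). Without c167706_g1_i1 all 3 directions of the sum turned, so the sum describes that unigene. The 2 transcription factors added together, nearly all of them reads of silk gland factor 1, were 2.52-fold higher in T40 than in T25 (95% counting interval 2.33 to 2.73) and 1.35-fold lower in T4 than in T25 (95% counting interval 1.22 to 1.49), a direction opposite to that of BmGATA beta in T4/T25.

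In the authors' tables, 4 of the 5 unigenes were listed in T4/T25, where 40.1% of the 30327 unigenes were listed. Of them 3 were higher in T4, the fibrohexamerin-like pair and BmGATA beta, and 1 was lower, the heavy chain-like unigene, where 55.1% of all listed unigenes were higher and 44.9% lower. In T40/T25 all 5 were listed, beside 66.2% of all unigenes. The 3 structural unigenes were lower and the 2 transcription factors higher, and 52.9% of all listed unigenes were lower and 47.1% higher. In T40/T4, 3 were listed, beside 62.3% of all unigenes, namely the fibrohexamerin-like pair as lower and silk gland factor 1 as higher, where 54.6% were lower and 45.4% higher. The fibrohexamerin-like pair was listed in all 3 tables, as were 2014 unigenes in all (6.64%). With 5 unigenes these counts are a description. In T4/T25 the median log2 read ratio of the listed silk and spinning gland unigenes was 2.20, beside 1.58 over all listed unigenes. It was -1.75 beside -1.51 in T40/T25, and -5.01 beside -1.59 in T40/T4.

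Read ratios to the control share the T25 library. Among the 18805 unigenes with counts in every library, 3655 were higher in T4 and lower in T40 than in T25, as the fibrohexamerin-like pair was. The pattern of silk gland factor 1, lower in T4 and higher in T40, was held by 2607. Higher at both temperatures, like BmGATA beta, were 6229, and lower at both, like the heavy chain-like unigene, were 6314. The 5 unigenes therefore lay in all 4 quadrants of the plane of these ratios.

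**Figure D3:**
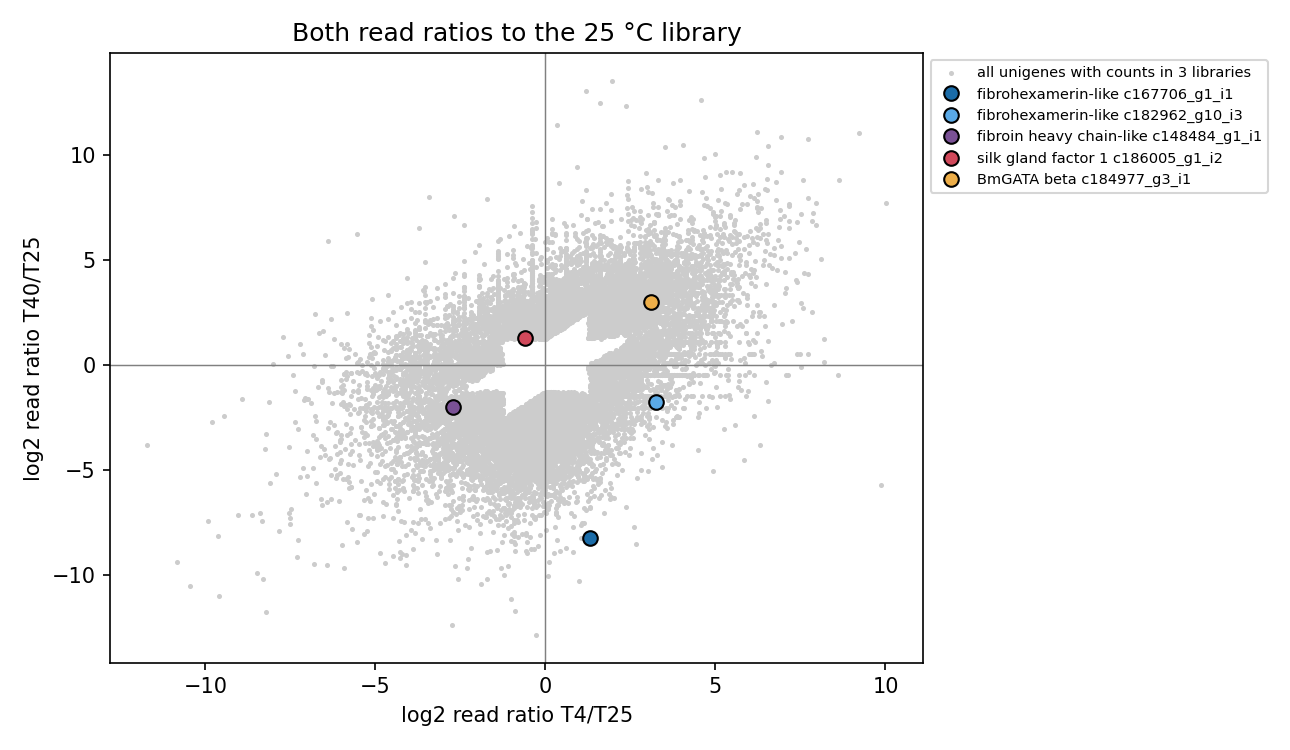
Log2 read ratio T4/T25 against log2 read ratio T40/T25 for the 18805 unigenes with counts in all 3 libraries (grey) and the 5 silk and spinning gland unigenes (coloured). The empty centre is left by the tables, which leave out unigenes with similar levels, and c167706_g1_i1 lies at 1.30 and -8.23, below nearly all others.

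Few of the candidate unigenes had the pattern of c167706_g1_i1. Candidates were the 3352 unigenes with counts in every library whose protein match has a name and whose highest library has 100 reads or more. Of them, 3 lay within 1 log2 unit of c167706_g1_i1 in the plane of both ratios. A unigene without reads in T40 could not be a candidate. With 12 reads of c167706_g1_i1 in T40, the distances carry counting error that was not assessed. The nearest was ABC transporter G family member 20 (c183956_g4_i2), a membrane transporter, with 347 reads in T4, 151 in T25 and 1 in T40, at a distance of 0.72. The others within that distance were a gamma-aminobutyric acid receptor subunit (c182219_g3_i1, 0.86), part of a neural chloride channel, and an aldo-keto reductase (c171320_g1_i1, 0.95) of the AKR2E4-like kind. Next came the antimicrobial peptide cecropin (c178517_g5_i2, 1.15) and a host cell factor-like unigene (c186636_g3_i1, 1.26). Silk gland factor 1, in contrast, had 387 of 3352 within 1 log2 unit. Its nearest neighbours were the SMARCAD1-type chromatin remodeller c189169_g4_i1 at 0.040, autophagy related protein 8 (c134220_g1_i1) at 0.053 and beta-catenin-like protein 1 (c180333_g1_i1) at 0.055, followed by a mitochondrial ribosomal protein (c169512_g1_i1, 0.076) and an hnRNP U-like protein (c188245_g2_i2, 0.091).

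Other transcription factors of the forkhead, POU and homeotic families, most of them forkhead proteins like silk gland factor 1, were mixed. They were taken by family name, so a unigene of this list need not act on silk genes. Of 10 such unigenes, 2 were listed as higher and 5 as lower in T40/T25, where 47.1% of all listed unigenes were higher and 52.9% lower. In T4/T25, 1 was higher and 3 were lower, beside 55.1% and 44.9% over all listed unigenes. In T40/T4, 5 were higher and 2 lower, beside 45.4% and 54.6%. Antennapedia, a homeotic protein that activates sericin genes in the *Bombyx* middle silk gland, was represented by c182032_g4_i9 with 1360 reads in T4, 1517 in T25 and 464 in T40. It was 4.51-fold lower in T40 than in T25 (95% counting interval 4.06 to 5.01), opposite in direction to silk gland factor 1. Sex combs reduced, which in *Drosophila* specifies the salivary gland, the counterpart of the silk gland, was represented by c182032_g3_i1 with 1 read in T4 and 24 in T40, a ratio of 22.7 with a counting interval of 3.69 to 932. It has no T25 value. It comes from the same assembly component as the Antennapedia unigene, so reads shared between these homeotic unigenes cannot be assigned with certainty. A POU class 6 factor (c174006_g2_i1) had 122 reads in T4, 27 in T25 and 5 in T40, the order of the fibrohexamerin-like pair. It was 7.45-fold lower in T40 than in T25 (95% counting interval 2.83 to 24.8). A shared order does not show that this POU factor acts on silk genes. The highest ratio in T40/T25 was that of forkhead box F2-like c169754_g1_i1, at 2.57-fold (95% counting interval 1.96 to 3.41), and the lowest in T4/T25 that of the forkhead gene crocodile-like c170602_g1_i2, 5.26-fold lower (95% counting interval 3.91 to 7.17).

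A list of other secreted proteins held 34 unigenes, of which 30 are mucin-named and 2 zonadhesin-like. Mucins also line the gut. In T40/T25, 23 of the 27 listed unigenes were lower and 4 higher, where 52.9% of all listed unigenes were lower. Their median log2 ratio was -3.45, beside -1.51 over all listed unigenes. In T4/T25, 12 were lower and 4 higher, where 44.9% of all listed were lower, and in T40/T4, 21 were lower and 7 higher, where 54.6% were lower. Of the 34 unigenes, 7 have transposon proteins as their UniProt match. Without those 7, a restriction chosen after the data had been seen, 3 were higher and 19 lower in T40/T25. The range within the mucin-2-like unigenes was wide, from c178655_g1_i1 with 3 reads in T25 and 391 in T40 to c180670_g2_i3 with 740 in T25 and 3 in T40, and mucin-2-like c180896_g2_i6 was the lowest in T4/T25, at 18.1-fold lower.

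Zonadhesin-like proteins are components of the silk of the wax moth *Galleria mellonella*. Both zonadhesin-like unigenes were lower in T4 and in T40 than in the control. The unigene c176083_g2_i2 had 647 reads in T4, 3027 in T25 and 37 in T40, so that it was 113-fold lower in T40 than in T25 (95% counting interval 81.7 to 161). The unigene c186143_g1_i1 had 53 reads in T4, 175 in T25 and 7 in T40, and its T40 level was 34.5-fold below that of T25 (95% counting interval 16.4 to 87.0). The T4 levels were 6.09-fold and 4.30-fold lower than in T25, a comparison in which the fibrohexamerin-like pair was higher. A spidroin-2-like unigene, c153795_g1_i1, named after a spider silk protein, had 482 reads in T4, 57 in T25 and 164 in T40. Its T40 level was 2.09-fold higher than in T25 (95% counting interval 1.53 to 2.87), which was not listed.

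Fibroin is rich in glycine, alanine and serine, and a list of enzymes that make or charge these amino acids went in different directions by count and by sum. Of 11 such unigenes, 7 were listed as higher and 3 as lower in T40/T25, where 47.1% of all listed unigenes were higher. The summed level of the 8 with counts in every library was lower in T40, at 2830 CPM beside 4487 in T25. Most of the T25 sum was reads of a single unigene, the 3-phosphoglycerate dehydrogenase c176700_g1_i1. Without it, the others together were higher in T40 than in T25. In T40/T4, 6 were higher and 3 lower, where 45.4% of all listed were higher. In T4/T25, 0 were higher and 1 was lower, so that 1 of the 11 was listed, where 40.1% of all unigenes were. The list took in 2 phenylalanine tRNA ligase subunits by their wording, and without them, again chosen after the data had been seen, 5 were higher and 3 lower in T40/T25. Glycine tRNA ligase (c185421_g2_i1) had 1002 reads in T4, 385 in T25 and 4231 in T40 and was 7.97-fold higher in T40 than in T25 (95% counting interval 7.18 to 8.87). Cytoplasmic alanine tRNA ligase (c205489_g1_i1) had 3488, 1344 and 12060 reads and was 6.51-fold higher (95% counting interval 6.15 to 6.89). Every tissue uses these ligases. The dehydrogenase of 3-phosphoglycerate (c176700_g1_i1), which begins the synthesis of serine, was 8.15-fold lower in T4 than in T25 (95% counting interval 8.01 to 8.28), with 15839 reads against 99073. It had 44913 reads in T40 and was 3.04-fold lower than in T25 (95% counting interval 3.01 to 3.08). Alanine glyoxylate aminotransferase 2 (c181420_g6_i1) was the lowest in T40/T25, at 14.5-fold lower.

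A list of moult timing names took 5 unigenes, of which 4 were ecdysone response genes. In T40/T25 these 4 were listed as lower and the remaining unigene as higher, where 66.2% of all unigenes were listed and 52.9% of the listed were lower. In T40/T4, 2 were lower and 1 higher, where 54.6% of all listed were lower, and 0 of the 5 were listed in T4/T25, where 40.1% of all unigenes were. The ecdysone receptor unigene (c182468_g1_i4), whose protein binds the moulting hormone, had 10930 reads in T4, 8504 in T25 and 4109 in T40. It was 2.85-fold lower in T40 than in T25 (95% counting interval 2.75 to 2.96). The early response genes E75 (c182995_g1_i6), broad-complex (c183767_g1_i10) and E74 (c189602_g2_i2) were 2.53-fold, 2.67-fold and 2.47-fold lower. The unigene that was higher, taken in by its name, was Krueppel homolog 2 (c176639_g4_i1), 4.34-fold (95% counting interval 4.16 to 4.54), a membrane protein that shares its name, but not its function, with the juvenile hormone response gene Krueppel homolog 1.

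Markers of other tissues also moved between the whole-body libraries. The summed level of 33 muscle markers with counts in all libraries, contractile proteins such as troponin and titin, was 40801 CPM in T4, 56581 in T25 and 7478 in T40. That of 12 fat body markers, storage and lipid carrier proteins, was 113651, 68860 and 18601, and that of 14 epidermis markers, mostly cuticle proteins, was 3587, 2835 and 915.9. The sum of midgut markers, 45 digestive enzymes and gut lining proteins, was higher in T40, with 5083, 4577 and 11440. Most of the fat body sum in T25 was reads of a single storage hexamerin (c185409_g1_i1). Without it, the other fat body markers together were higher in T40 than in T25. In T40/T25 the muscle sum was 7.57-fold lower, the fat body sum 3.70-fold lower and the epidermis sum 3.10-fold lower, beside 131-fold for the structural silk unigenes. These are unlike measures, since the silk sum in T25 is nearly all c167706_g1_i1 and the others are sums over 33, 12 and 14 unigenes. Single markers varied more widely than their sums. The part of these tissues in the silk result was not tested.

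**Figure D4:**
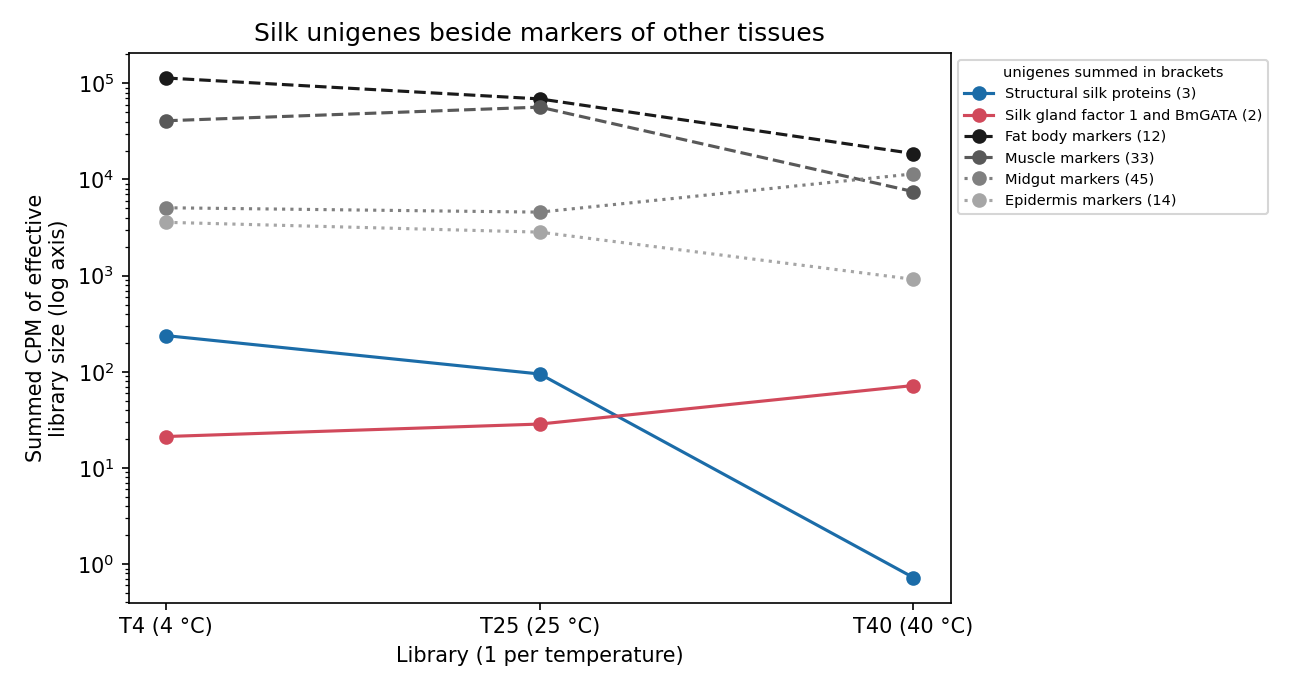
Summed CPM (log axis) in the T4, T25 and T40 libraries for the structural silk unigenes, the 2 transcription factors and 4 lists of tissue markers, over unigenes with counts in all 3 libraries (their number in brackets). The structural silk sum, in T25 nearly all c167706_g1_i1, goes from 94.9 in T25 to 0.725 in T40. The muscle sum goes from 56581 to 7478, and the midgut sum is higher in T40.

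For the marker lists, the shares over all listed unigenes were 52.9% lower in T40/T25, 44.9% in T4/T25 and 54.6% in T40/T4. Of 39 muscle unigenes, 8 were listed as higher and 25 as lower in T40/T25, 10 as higher and 12 as lower in T4/T25, and 3 as higher and 27 as lower in T40/T4. Twitchin (c182570_g3_i3), a giant muscle protein, was 74.1-fold lower in T40 than in T25 (95% counting interval 59.8 to 92.9), and titin-like c173784_g1_i1 was 10.9-fold higher. In T4/T25 a muscle myosin heavy chain (c98457_g2_i1) was 42.8-fold higher, with 558 reads against 10, and twitchin was 5.39-fold lower. Of 13 fat body unigenes, 10 were higher and 1 lower in T4/T25, 5 higher and 3 lower in T40/T25, and 1 higher and 7 lower in T40/T4, so that the fat body sum, led by a storage hexamerin (c185409_g1_i1) that was 15.3-fold lower in T40 than in T25, and the count of listed unigenes go in different directions in T40/T25. Microvitellogenin-like c182528_g1_i1 had 74 reads in T4, 2 in T25 and 109 in T40, and microvitellogenin-like c185826_g1_i1 had 2, 145 and 122. Of 16 epidermis unigenes, 4 were higher and 8 lower in T40/T25, 6 higher and 5 lower in T4/T25, and 3 higher and 9 lower in T40/T4. The larval cuticle protein c170679_g1_i1 was 1007-fold lower in T40 than in T25, and the cuticle protein c184656_g6_i1 was 11.02-fold higher. In T4/T25 the cuticle protein c119055_g1_i1 was 22.5-fold higher and the larval cuticle protein c154439_g1_i1 was 6.29-fold lower. Of 47 midgut unigenes, 23 were higher and 14 lower in T40/T25, 14 higher and 16 lower in T4/T25, and 26 higher and 12 lower in T40/T4. A peritrophin-like unigene of the gut lining (c179826_g3_i2) was 739.8-fold higher in T40 than in T25 and 94.3-fold higher in T4 than in T25. An alkaline trypsin C-like unigene (c181312_g4_i1) was 1144-fold lower in T40 than in T25, and another (c176272_g1_i1) had 1 read in T4 and 58 in T25, so the fold of c167706_g1_i1 lay within the range of the marker lists. No unigene of these tables has a count of 0.

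The names in NR do not reach every silk-related unigene. A further 5 unigenes carry a silk word in another annotation only, and they are named here after their values had been seen. The unigene c177653_g1_i5, uncharacterized in NR, matches seroin of *Galleria mellonella*, a small silk protein of antimicrobial kind, in UniProt. It had 4 reads in T4, 3 in T25 and 279 in T40. In T40 it was 67.4-fold higher than in T25 (95% counting interval 22.8 to 329) and 65.9-fold higher than in T4 (95% counting interval 25.4 to 243), opposite to the fibrohexamerin-like pair. The unigene c178603_g6_i8 matches the fibrohexamerin family in Pfam and had 16 reads in T4, 48 in T25 and 24 in T40, most in the control. It was 3.91-fold lower in T4 (95% counting interval 2.18 to 7.37) and 2.76-fold lower in T40 (95% counting interval 1.66 to 4.71). The remaining 3 have nucleotide matches only, to a sericin gene region (c152608_g1_i1, 41 reads in T4 and 14 in T40), to a fibroin heavy chain promoter (c160918_g2_i1, 27 reads in T25 and 102 in T40) and to a caddisfly fibroin gene (c177341_g2_i1, 38 reads in T4, 40 in T25 and 3 in T40). Such matches do not show that a silk protein is encoded.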

How the data were processed

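Per the labels, mRNA libraries of 5 pooled whole larvae were sequenced for each of 3 temperatures, without replicates. The authors trimmed reads (Trimmomatic 0.38, FastQC 0.11.7), assembled the merged reads with Trinity, aligned with Bowtie 1.1.2 and deposited RSEM read counts per unigene. FPKM, as deposited, is the read count that the authors normalized to unigene length and library size. The deposited log2 values are the authors' normalization, log2 of 1 plus counts per 1000000 reads of effective library size (CPM), with DESeq2 named in the submitters' processing notes. Effective sizes of 36483914 (T4), 28015943 (T25) and 38643842 (T40) were derived from them. Each table holds listed unigenes only, which need not be among the differentially expressed genes that the study reports. The 12 columns with the authors' fold changes, mean levels and P-values were not used, nor were 6 columns of means per library.

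Tables were joined by unigene. Printed folds are ratios of counts divided by effective size, with a pseudocount of 0 and 95% exact Clopper-Pearson intervals. Their coverage was checked on simulated Poisson counts, which hold counting error only. That check leaves out differences between larvae, shared reads and the listing of unigenes by their ratio. No p-value was computed. One read is worth 0.0274 CPM in T4, 0.0357 in T25 and 0.0259 in T40, which limits the precision of low values. Members with at least 50 reads in the highest library were to be given in full, and the heavy chain-like unigene, which has fewer, was added after its values were seen. From each of 8 lists (4 of tissue markers), patterns on NR names, the highest and lowest ratios in T4/T25 and T40/T25 with at least 50 reads were named. Exceptions are zonadhesin, spidroin, sex combs reduced, alanine tRNA ligase and E75, broad-complex and E74, which were added for their roles with values known. The 5 nearest unigenes by Euclidean distance of both log2 ratios were taken for the 2 members with most reads. The members and lists were chosen with earlier results of these data known. None of the 5 NR matches was found in the RefSeq gene table, so no gene locus is given.

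Alternatives were scaling by trimmed reads, TMM (edgeR 4.0.16, R 4.3.3), FPKM ratios, pseudocounts of 1 and 10, read and fold filters and 1 unigene per NR hit. Scripts ran in Python 3.11.15 with scipy 1.17.1, numpy 2.4.6, matplotlib 3.10.9 and pandas 2.3.3.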

Additional observations from a re-analysis of the deposited data

Results flagged for a closer look

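For 3 of the 5 unigenes the T4 and T40 libraries lay on opposite sides of the control. The difference between both responses was not tested, since each temperature has 1 library. Such patterns were common. Of the 18805 unigenes with counts in every library, 3655 were higher in T4 and lower in T40, and 2607 were the reverse. The fibrohexamerin-like c167706_g1_i1 was above T25 in T4 and below it in T40, a span of 742-fold, lower in T40. The fibrohexamerin-like c182962_g10_i3 had the same order with a span of 32.2-fold, lower in T40. Silk gland factor 1 (c186005_g1_i2) was below T25 in T4 and above it in T40, with a span of 3.71-fold, higher in T40. Its step between T4 and T25 was 1.51-fold and was not listed.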

How the results depend on the processing

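No paired analysis was possible because each temperature has 1 library and the groups share a single replicate number. Leaving out a replicate was not possible for the same reason. Over 15 member ratios and 5 settings, 72 of 75 values kept their direction. The 3 that turned were those of BmGATA beta (c184977_g3_i1) in T40/T4, at 1.15 with scaling by trimmed reads, 1.11 with TMM and 1.09 by FPKM. Scaling by trimmed reads shifted all log2 ratios of T4/T25 by -0.13, those of T40/T25 by 0.16 and those of T40/T4 by 0.28, and TMM by -0.04, 0.19 and 0.23. The ratio of summed reads of the 5 unigenes became 1.92 for T4/T25, 0.656 for T40/T25 and 0.342 for T40/T4 with trimmed reads, 0.672 in T40/T25 and 0.329 in T40/T4 with TMM, and 2.25, 0.222 and 0.0986 by FPKM, in which the length of silk gland factor 1 weighs its reads down. Without c167706_g1_i1 the sums turned to 0.958, 2.41 and 2.51. With a pseudocount of 10, c167706_g1_i1 was 164.7-fold lower in T40 than in T25 and 405-fold lower than in T4, and c182962_g10_i3 15.8-fold lower in T40 than in T4. Where 50 reads or more were asked of the higher library, 0 unigenes remained lower in T4/T25 and 1 in T40/T25. With a read ratio of at least 4, 1 was higher and 1 lower in T40/T25 and 0 were higher in T40/T4. With 1 unigene per NR hit, 1 was lower in T40/T4. Depth limits the heavy chain-like unigene, BmGATA beta and c182962_g10_i3 in T25 and the fibrohexamerin-like pair in T40, each with 22 reads or fewer.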

Other observations

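The assembly component of c182962_g10_i3 also holds c182962_g12_i1, without a protein match, with 174 reads in T4, 15 in T25 and 57 in T40. It further holds c182962_g13_i1, whose nucleotide match is a broad-complex transcript, with 465, 665 and 10 reads. The assembly component of BmGATA beta also holds the BCFI-like unigene c184977_g4_i1, with 1001 reads in T4 and 307 in T25, 2.50-fold higher in T4 (95% counting interval 2.20 to 2.85), the direction of BmGATA beta in that comparison. It has no T40 value. Another BCFI-like unigene, c184866_g3_i2, had 97 reads in T4 and 33 in T40. It was 3.11-fold lower in T40 than in T4 (95% counting interval 2.08 to 4.77), where the interval of BmGATA beta includes equal levels.

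Other unigenes with GATA in their NR name differed among themselves. Such a name alone does not show a GATA transcription factor. The 2 unigenes of GATA-binding factor C were higher in T40 than in T25, 14.2-fold for c178573_g1_i3 (95% counting interval 8.596 to 25.1) and 14.5-fold for c178573_g5_i4 (95% counting interval 10.5 to 20.5). The GATA zinc finger 14-like unigene c183538_g5_i1, with 61972 reads in T25 and 7638 in T40, was 11.2-fold lower (95% counting interval 10.9 to 11.5). The unigenes c185423_g6_i2, c189632_g1_i1 and c178097_g1_i2, of the same name, were 11.1-fold, 5.86-fold and 3.71-fold lower in T40 than in T25.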
